A study of Mus musculus with 12 samples.

Results

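The receptors and Smad proteins that carry BMP and TGF-beta signals were described as 10 genes of the mouse: the type I receptors Bmpr1a, Acvr1 and Tgfbr1, the type II receptors Bmpr2 and Tgfbr2, the receptor-activated Smads Smad1 and Smad5, the common Smad4, and the inhibitory Smad6 and Smad7. They were taken by symbol from a table of 55450 genes, and each of the 10 matched 1 row. RNA was measured in 12 libraries of stranded total RNA, depleted of ribosomal RNA, from donor cells of mouse bone marrow that lack lineage markers and carry the receptor Kit. These cells hold hematopoietic stem cells together with their myeloid and erythroid progenitors. In all groups the cells came from donors and were taken out of the marrow of hosts of a competitive transplant, in which donor and competitor cells share 1 host. The 4 groups have 3 libraries each and carry the genotype labels WT, Tet2 KO (here Tet2KO), Id1 KO (Id1KO) and Tet2 KO with Id1KO (dKO). Strain, age, the alleles used and the time after transplant are not given in the sources used here. The design compares loss of Tet2, loss of Id1 and loss of both genes with WT, and loss of both with each single loss.

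Ligands of the BMP and TGF-beta families bring together a pair of type II and a pair of type I receptors on the cell surface, where type II phosphorylates type I. The type I receptor then phosphorylates receptor Smads, Smad1, Smad5 and Smad9 for most BMP receptors and Smad2 and Smad3 for TGF-beta and activin receptors, and these enter the nucleus with Smad4. Smad6 and Smad7 block this step and are themselves transcribed in response to it. In blood formation TGF-beta is known to hold stem cells in quiescence, and Id1 is a classical gene switched on by BMP through Smad1 and Smad5.

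Libraries held 15706407 to 19959183 estimated counts. The targeted genes did not follow the labels. Tet2 stood at 99.3 ± 2.20 CPM (counts scaled to library size by edgeR, SD, n = 3) in libraries labelled WT and 130 ± 2.51 in those labelled Tet2KO, 92.0 ± 1.55 in Id1KO and 118 ± 3.08 in dKO. Id1 stood at 1.47 ± 0.27 CPM in WT and at 3.86 ± 0.42, 3.96 ± 0.34 and 3.93 ± 0.50 CPM in Tet2KO, Id1KO and dKO. Counts over a whole gene can include transcript that remains outside a deleted part, so these levels do not check the labels where that part is unknown, and all groups below are named as the libraries are labelled. Titles give the 3 libraries of a genotype 1 sample number with a suffix whose meaning is not stated, so they may be repeats of 1 cell sample. The p-values therefore measure the spread between these libraries, which may be technical, and a genotype cannot be told apart from the cell sample it came from. Kit was read at 314 to 377 CPM in every library, while Cd3e and Ly6g, markers of T cells and neutrophils, had at most 1 and 2 counts. Itgam, a marker of myeloid cells, had 387 to 630 counts. In bulk RNA, fewer cells of a type and less RNA per cell cannot be told apart.

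Per length of exon, Smad4 and Smad5 were the most abundant of the 10 transcripts and Bmpr1a the least. The scale here is CPM per kb of exonic sequence, averaged over 12 libraries. Smad4 was at 11.4, Smad5 at 9.87 and Tgfbr1 at 7.61 CPM per kb. Smad4 and Smad5 overlapped in range, although Smad4 was the higher in 12 of 12 libraries. Smad1 at 3.92 and Tgfbr2 at 3.79 CPM per kb could not be ordered, since Smad1 was the higher in 7 of 12 libraries. Smad7 at 2.38 and Bmpr2 at 2.07 overlapped as well, with Smad7 higher in 9 of 12. Acvr1 and Smad6 were near the bottom at 0.546 and 0.428 CPM per kb and overlapped. Bmpr1a followed at 0.0440, below every library's value of the other members. The TGF-beta receptors were thus each read above the BMP receptors on this scale, with Bmpr2 the most abundant BMP receptor among those listed. The order of Tgfbr2 and Bmpr2 depends on the exonic lengths used, 8187 and 17983 bp, which merge all annotated exons. In CPM without length Bmpr2 was the higher, at 37.3 against 31.0 for Tgfbr2 averaged over the 12 libraries.

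**Figure D1:**
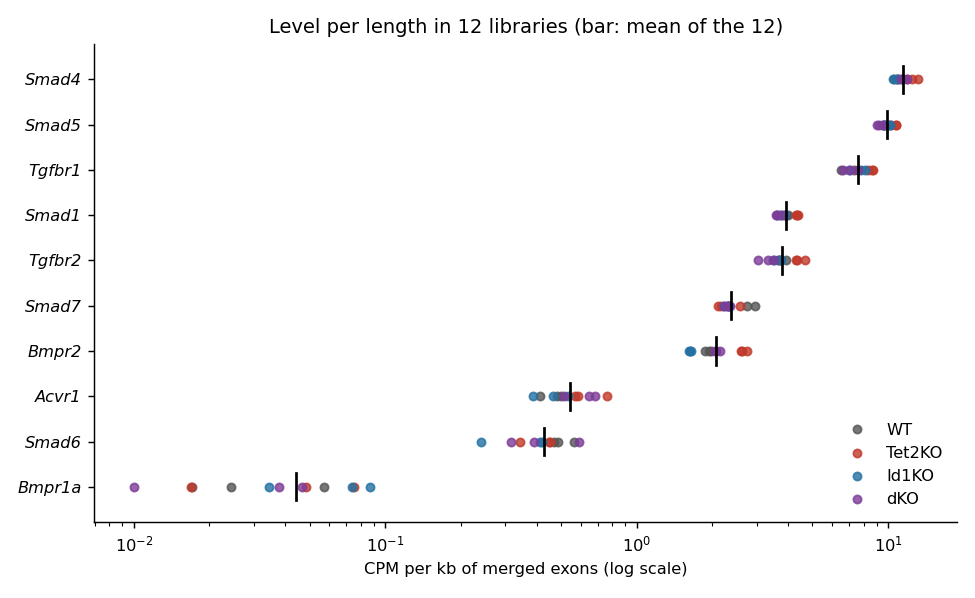
Level per exonic length of each member in CPM per kb on a log axis, 1 point for each of the 12 libraries. Smad4 and Smad5 lie highest at means of 11.4 and 9.87, and Bmpr1a lowest at 0.0440.

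Promoter windows of 300 bp from RefSeq on GRCm38.p6 were found for 8 of 10 members, 11 windows in all. They were searched on both strands for the palindrome GTCTAGAC, which joins 2 Smad boxes, and for GGCGCC, a GC-rich Smad site, and these motifs do not overlap each other. The palindrome was in 70 of 32851 windows of all genes (0.213%) and in 1 window of the members, that of Smad6, across its start site. GGCGCC was in 11.9% of all windows and in 5 of the 11, those of Bmpr2, Tgfbr1, Smad5 and Bmpr1a. The 2 Smad5 windows among them overlap and hold the same match, so 4 separate matches stand behind the 5 windows. Shown are the stretch of the Smad6 window that ends with the palindrome (chr9:64022056-64022179, minus strand) and the part of the Tgfbr1 window around its match (chr4:47352972-47353071, plus strand). They were chosen as the inhibitor that holds the rarer motif and as a receptor called higher in Tet2KO against WT. Capitals mark the motif.
Smad6: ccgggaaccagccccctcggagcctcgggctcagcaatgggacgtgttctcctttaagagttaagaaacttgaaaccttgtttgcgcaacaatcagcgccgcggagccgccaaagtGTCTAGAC
Tgfbr1: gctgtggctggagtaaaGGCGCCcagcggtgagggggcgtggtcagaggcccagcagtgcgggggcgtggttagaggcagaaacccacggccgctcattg
The match is a run of letters and no measure of binding. No factor binding was measured in these libraries.

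In libraries labelled Tet2KO, 3 of the 5 receptors and all 3 of the signal-carrying Smads rose by small amounts. Of the other receptors, Acvr1 did not pass and Bmpr1a was not tested, and neither inhibitory Smad passed. Against WT, 6 of the 9 members that had enough counts to test rose and none fell by edgeR's quasi-likelihood test, with Bmpr2, Tgfbr1, Tgfbr2, Smad4, Smad1 and Smad5 raised between 1.10-fold and 1.38-fold. Among all 14346 genes tested, 16.6% rose, 16.2% fell and 32.8% were called in either direction, so the count for the members has to be read against a wide background. The libraries of the 2 labels did not overlap for 8 of the 9, against 46.0% of all genes. The median log2 fold change was 0.22 over the members and -0.00 over all genes.

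Bmpr2, both TGF-beta receptors and the BMP receptor Smads were lower in libraries that carried the Id1 label besides the Tet2 label. In dKO against Tet2KO, 5 of 9 members fell and none rose: Tgfbr2, Bmpr2, Tgfbr1, Smad1 and Smad5. Of the other BMP receptors, Acvr1 was not called (log2 fold change -0.05, edgeR adjusted p = 0.863) and Bmpr1a was not tested. Smad4, Smad6 and Smad7 were not called either. Of all genes, 13.4% fell, 13.1% rose and 26.4% were called. Libraries did not overlap for 6 of 9 members, against 39.9% of all genes, and the median log2 fold change was -0.19 over the members. These comparisons share the Tet2KO libraries, so their directions are not independent of each other.

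The remaining comparisons called 1 member each. Bmpr2 fell in Id1KO against WT, where 15.0% of all genes were called, 7.77% lower and 7.26% higher. Tgfbr2 fell in dKO against WT, where 19.2% were called, 8.97% lower and 10.2% higher. Bmpr2 rose in dKO against Id1KO, where 19.3% were called, 10.6% higher and 8.7% lower. Libraries did not overlap for 2, 4 and 1 of the 9 members in these comparisons, against 32.7%, 33.1% and 33.2% of all genes. When the 3 libraries of a label were summed and 4 sums were fitted with additive terms for the labels, edgeR called 0 members, with an unadjusted p under 0.05 for 2 members in the Tet2 term and 1 in the Id1 term.

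**Figure D2:**
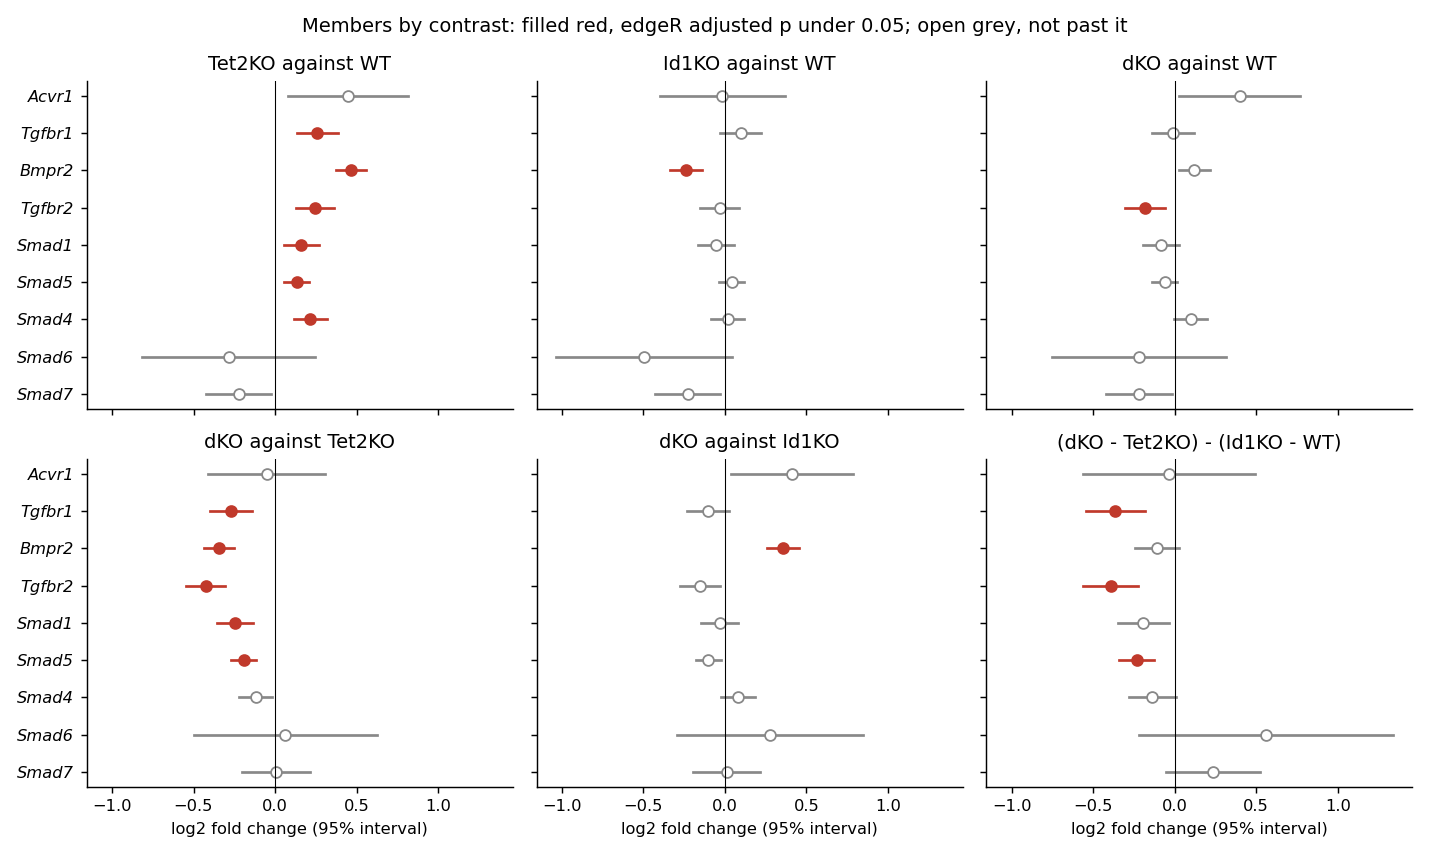
Log2 fold change of each tested member in 5 comparisons and the interaction, with 95% intervals from edgeR's fit and filled points where the adjusted p is under 0.05. In Tet2KO against WT 6 members lie above 0 as called, and in dKO against Tet2KO 5 lie below 0.

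Bmpr2, the type II receptor for BMP ligands (ENSMUSG00000067336.6, chromosome 1, 59763400 to 59879014 on the plus strand of GRCm38, as are all positions below), had the widest range of genotype means of the members tested, 1.63-fold. Its level was 33.5, 34.8 and 35.4 CPM in the WT libraries and 46.7, 49.4 and 47.1 in Tet2KO. It was 29.5, 29.3 and 29.1 CPM in Id1KO and 36.9, 38.6 and 37.2 in dKO. The 4 labels formed 4 separate bands in the order Id1KO, WT, dKO and Tet2KO, with no library of one inside another. The log2 fold change in Tet2KO against WT was 0.47 ± 0.044 (SE, edgeR adjusted p = 9.16e-08), and in Id1KO against WT it was -0.24 ± 0.046 (adjusted p = 0.00136). In dKO it was -0.35 ± 0.044 against Tet2KO (adjusted p = 8.40e-06) and 0.36 ± 0.047 against Id1KO (adjusted p = 1.27e-05). Against WT the dKO libraries differed by 0.12 (adjusted p = 0.0711), short of the threshold. The Tet2 term from summed libraries gave 0.42 for Bmpr2 with an adjusted p of 0.05002, and the Id1 term -0.29 with 0.404.

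Tgfbr2, the type II receptor that binds TGF-beta (ENSMUSG00000032440.13, chromosome 9, 116084293 to 116175360, minus strand), was at 29.9, 32.0 and 30.0 CPM in WT. It was 38.1, 35.2 and 35.7 CPM in Tet2KO, 30.5, 30.7 and 28.7 in Id1KO, and 28.8, 24.96 and 27.3 in dKO. Tet2KO lay above every other library and dKO below every WT library, while 1 dKO library reached the lowest Id1KO value. The log2 fold change was 0.24 ± 0.056 in Tet2KO against WT (edgeR adjusted p = 0.00207) and -0.43 ± 0.058 in dKO against Tet2KO (adjusted p = 1.83e-05), the widest fall of a member in that comparison. In dKO against WT it was -0.18 ± 0.058 (adjusted p = 0.0326). That last call was lost with DESeq2 (adjusted p = 0.0957), with only the compared libraries fitted (0.0531), and on leaving out WT replicate 2 (0.142) or 3 (0.0584), or dKO replicate 2 (0.174) or 3 (0.0699). Tgfbr2 shares stretches of 133 to 171 bp at 95% identity or more with 12 other genes, among them Abcb4 and Ilf2, and how reads there were shared out is not stated.

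Tgfbr1, the type I receptor that pairs with Tgfbr2 (ENSMUSG00000007613.15, chromosome 4, 47353222 to 47414931, plus strand), was at 42.7, 49.4 and 48.0 CPM in WT and 54.2, 57.0 and 56.4 in Tet2KO. It was 51.0, 45.7 and 53.2 CPM in Id1KO and 46.3, 49.6 and 43.4 in dKO. Tet2KO lay above all other libraries, and the other 3 labels overlapped. It rose by 0.26 ± 0.060 in Tet2KO against WT (edgeR adjusted p = 0.0025) on the log2 scale and fell by 0.27 ± 0.062 in dKO against Tet2KO (adjusted p = 0.00297).

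Acvr1, a type I receptor of BMP and activin ligands (ENSMUSG00000026836.15, chromosome 2, 58388644 to 58567157, minus strand), had 36 to 62 counts per library. WT libraries stood at 2.33, 2.42 and 1.999 CPM and Tet2KO libraries at 2.82, 3.69 and 2.75. Those of Id1KO stood at 2.25, 1.87 and 2.59 CPM and those of dKO at 2.47, 3.11 and 3.31. WT did not overlap with Tet2KO or dKO, but no comparison passed. The log2 fold change in Tet2KO against WT was 0.45 ± 0.176, of the size seen for Bmpr2, with an interval of 0.08 to 0.82 and an edgeR adjusted p of 0.0565. Leaving out dKO replicate 1 from the fit brought that p to 0.0484.

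Bmpr1a, the main type I receptor for BMP2 and BMP4 in many tissues (ENSMUSG00000021796.15, chromosome 14, 34410734 to 34503341, minus strand), had 1 to 10 counts in a library and was too low to test. The 3 libraries of a label summed to 12 counts in WT (95% Poisson interval 6.20 to 20.96), 15 in Tet2KO (8.40 to 24.7), 23 in Id1KO (14.6 to 34.5) and 10 in dKO (4.80 to 18.4). These intervals cover counting error only, and all 4 overlap. With no filter on low counts its lowest edgeR adjusted p over 6 contrasts was 0.363, and differences were not detectable at this depth.

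**Figure D3:**
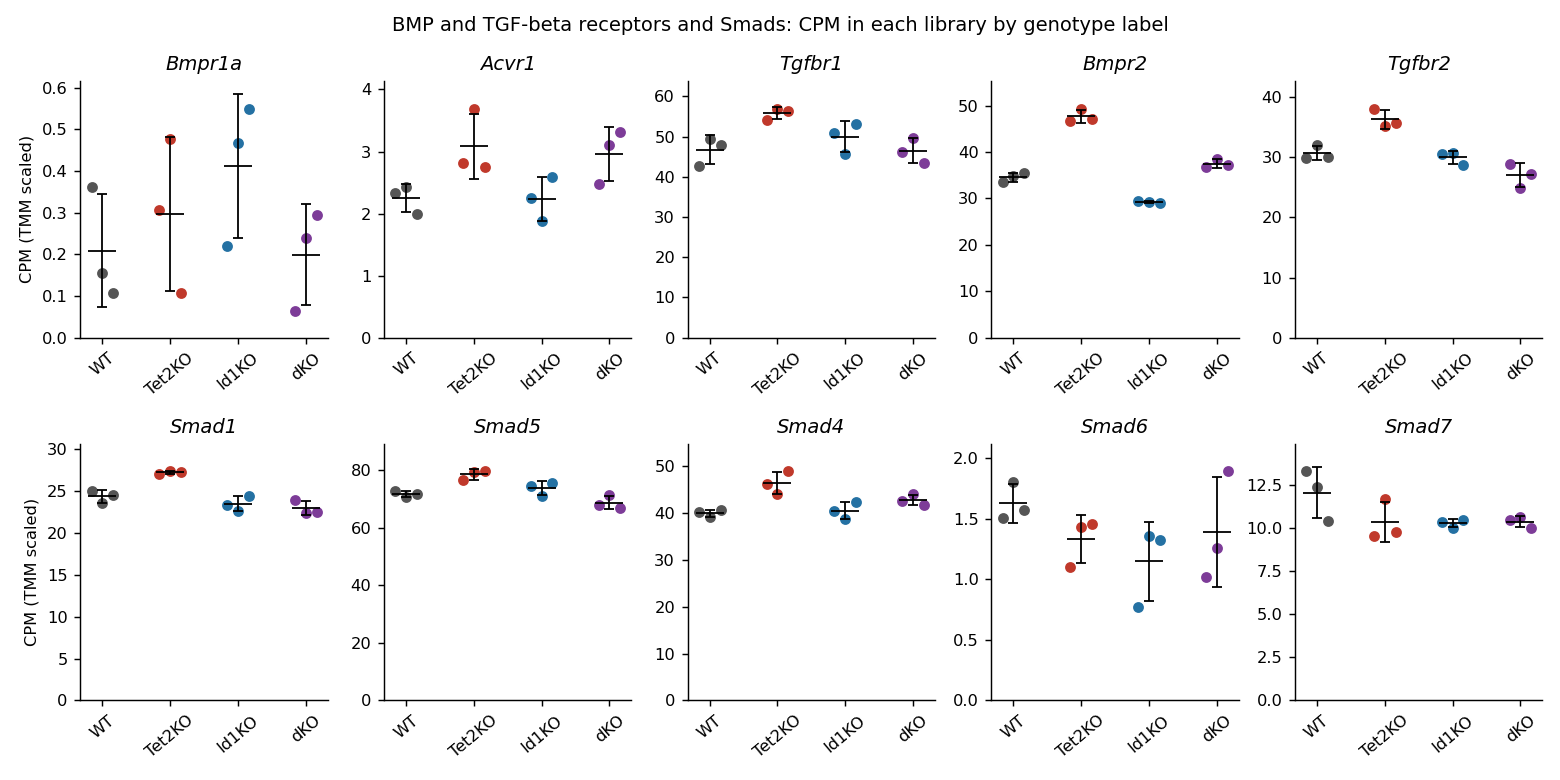
CPM of each member in every library by genotype label, with a line at the mean, error bars of 1 SD (n = 3) and an axis from 0 in each panel. Bmpr2 forms 4 separate bands from 29.1 to 49.4 CPM, and Tgfbr1, Tgfbr2, Smad1 and Smad5 are highest in Tet2KO.

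Smad1 and Smad5 are closely related receptor Smads of the BMP branch. Smad1 (ENSMUSG00000031681.16, chromosome 8, 79338395 to 79399518, minus strand) gave 24.99, 23.6 and 24.6 CPM with the WT label and 27.1, 27.4 and 27.3 with Tet2KO. It gave 23.3, 22.7 and 24.5 CPM with Id1KO and 24.0, 22.5 and 22.6 with dKO. The Tet2KO libraries lay above all others, and the other 3 labels overlapped. Smad1 rose by 0.16 ± 0.051 in Tet2KO against WT (edgeR adjusted p = 0.0206) on the log2 scale and fell by 0.25 ± 0.053 in dKO against Tet2KO (adjusted p = 0.00175). The first of these was not called by DESeq2 (adjusted p = 0.112), without a filter on low counts (0.0913) or without WT replicate 2 (0.0772).

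Smad5 (ENSMUSG00000021540.16, chromosome 13, 56703010 to 56742377, plus strand) was at 72.7, 70.8 and 71.8 CPM in WT and 76.5, 79.5 and 79.7 in Tet2KO. It was 74.7, 71.1 and 75.7 CPM in Id1KO and 68.1, 71.3 and 66.9 in dKO. Again Tet2KO lay above every other library. Smad5 rose by 0.13 ± 0.036 in Tet2KO against WT (edgeR adjusted p = 0.00763) on the log2 scale and fell by 0.19 ± 0.037 in dKO against Tet2KO (adjusted p = 0.0006). In dKO against Id1KO the log2 fold change was -0.10 (adjusted p = 0.0577), and it passed on leaving out Id1KO replicate 2 (0.0261) or dKO replicate 2 (0.0234).

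Smad4, which joins the receptor Smads of both branches (ENSMUSG00000024515.13, chromosome 18, 73639009 to 73703780, minus strand), was at 40.2, 39.2 and 40.6 CPM in WT and 46.3, 44.1 and 49.0 in Tet2KO. It was 40.4, 38.8 and 42.3 CPM in Id1KO and 42.6, 44.0 and 41.8 in dKO. All dKO libraries lay between the WT and the Tet2KO libraries. The log2 fold change was 0.22 ± 0.048 in Tet2KO against WT (edgeR adjusted p = 0.00161). In dKO against Tet2KO it was -0.12 (adjusted p = 0.0764), which passed without Tet2KO replicate 2 (0.0370).

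Smad7, which blocks type I receptors of both branches (ENSMUSG00000025880.11, chromosome 18, 75367529 to 75395935, plus strand), was at 13.3, 12.4 and 10.4 CPM in WT. It was 9.56, 11.7 and 9.80 CPM in Tet2KO, 10.4, 10.04 and 10.5 in Id1KO and 10.5, 10.7 and 10.04 in dKO. WT replicate 3 lay among the libraries of the other labels, and the other WT libraries lay above them all. The log2 fold changes against WT were -0.22 for Tet2KO (edgeR adjusted p = 0.0817), -0.23 for Id1KO (0.117) and -0.22 for dKO (0.128). Without WT replicate 3 they were -0.31, -0.32 and -0.31 and passed, with adjusted p of 0.0199, 0.0362 and 0.0374. Without Tet2KO replicate 2 the first was -0.31 and passed as well (0.0301).

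Smad6, which acts mainly on BMP receptors and Smad1 (ENSMUSG00000036867.7, chromosome 9, 63953076 to 64022059, minus strand), had 29, 35 and 29 counts in WT and 18, 24 and 27 in Tet2KO. It had 14, 26 and 24 counts in Id1KO and 16, 21 and 32 in dKO. WT had more counts than any Tet2KO or Id1KO library and overlapped dKO. The log2 fold change in Tet2KO against WT was -0.28 with an interval of -0.82 to 0.25 (edgeR adjusted p = 0.430), so at this depth neither a fall nor a small rise can be set aside.

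The change from Tet2KO to dKO was compared with the change from WT to Id1KO in an interaction term. For 3 of 9 members it was called, all negative: Tgfbr2 at -0.39 ± 0.081 (edgeR adjusted p = 0.00253), Tgfbr1 at -0.36 ± 0.087 (0.00754) and Smad5 at -0.23 ± 0.051 (0.00429). Of all genes, 14.5% were called, 7.03% negative and 7.46% positive. For Tgfbr2 the change from WT to Id1KO was -0.03 and that from Tet2KO to dKO -0.43, and for Tgfbr1 these were 0.10 and -0.27. The term was not called for Bmpr2, whose changes of -0.24 and -0.35 differed by -0.11, with an interval of -0.24 to 0.03 (adjusted p = 0.289). The label Id1KO thus went with lower Bmpr2 on either background, while for the TGF-beta receptors a fall was called on the Tet2KO background and the difference between backgrounds passed.

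Ratios within a library do not depend on scaling, and those given here were chosen after the values were seen. Counts of Bmpr2 per count of Tgfbr2 were 1.13 ± 0.047 in WT (SD, n = 3) and 1.32 ± 0.090 in Tet2KO. They were 0.978 ± 0.033 in Id1KO and 1.40 ± 0.136 in dKO. Groups did not overlap in any pairwise comparison listed above except dKO against Tet2KO. Counts of Smad7 per count of Smad1 plus Smad5 were 0.125 ± 0.015 with the WT label, 0.0977 ± 0.010 with Tet2KO, 0.106 ± 0.0011 with Id1KO and 0.113 ± 0.0008 with dKO. The WT range of 0.108 to 0.136 overlapped that of Tet2KO, 0.0916 to 0.109.

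**Figure D4:**
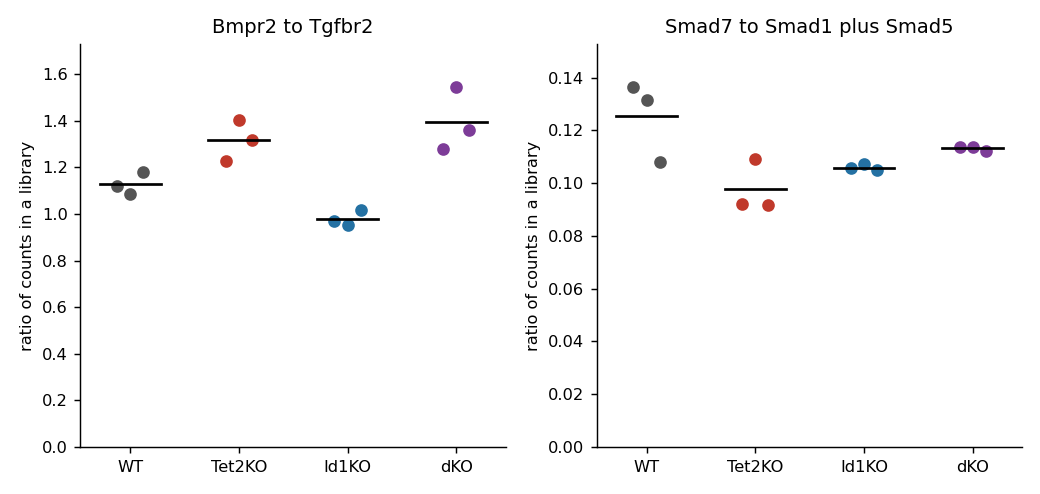
Ratio of counts within each library by genotype label, with the mean, for Bmpr2 to Tgfbr2 and for Smad7 to the sum of Smad1 and Smad5. Bmpr2 per Tgfbr2 is lowest in Id1KO (mean 0.978) and highest in dKO (mean 1.40).

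Markers of other cells moved with these comparisons, and their part in the members' differences was not tested. The 15 erythroid genes, all with counts, summed to 1401 to 1445 CPM with the WT label and 868.8 to 884.5 with Tet2KO, and to 1593 to 1610 with Id1KO and 1443 to 1451 with dKO. In Tet2KO against WT 14 of these 15 fell, and in dKO against Tet2KO 14 of 15 rose. The 10 stem and multipotent genes summed to 919.9 to 932.4, 993.1 to 1010, 844.6 to 858.6 and 842.8 to 857.4 CPM in this order of labels. The 10 neutrophil granule genes stood at 14070 to 14130, 15540 to 15780, 11820 to 12800 and 11640 to 12830 CPM in the same order. Endothelial and stromal genes, 10 in all, summed to 145.2 to 148.7, 168.6 to 176.2, 129.6 to 135.1 and 141.6 to 147.6 CPM. Most of that sum was Pecam1, which blood cells also express, at 87.0 to 118 CPM, while Cdh5, Lepr and Col1a1 had at most 3, 2 and 3 counts in a library and Emcn had 10 to 20. Of the 6 genes of that list that were tested, Tek and Pdgfrb rose in Tet2KO against WT and none fell. In that comparison 16.6% of all genes rose and 32.8% were called. The monocyte and dendritic genes, 8 in all, summed to 720.2 to 737.9, 788.4 to 793.5, 624.3 to 631.6 and 796.1 to 817.6 CPM in that order. The 8 megakaryocyte genes were highest in Id1KO (224 to 237.5 CPM) and between 157.9 and 179.8 CPM elsewhere. The 10 lymphoid genes were lowest in dKO (139.6 to 151.4 CPM) and highest in Tet2KO (from 195.4 CPM), and the 7 genes of mast cells, basophils and eosinophils from 286.2 CPM in dKO to 449.1 in Id1KO. No list had a gene at 0 in all libraries. Each sum leans on the most abundant genes of its list, and some single genes went the other way. In Tet2KO against WT 5 of 10 stem and multipotent genes rose and 2 fell. There 5 of 9 neutrophil granule genes tested rose and 2 fell, and 4 of 7 monocyte and dendritic genes rose and 1 fell. In dKO against Tet2KO these counts were 1 and 6, 3 and 4, and 1 and 2. The shares of all genes called were 32.8% and 26.4%.

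Bmpr2 followed a pattern that many genes shared. Over the 12 libraries, the 3 genes most like it among 10335 with at least 5 CPM were Ly6c2 (Pearson r = 0.987 on log2 CPM), C3 (0.985) and Mgst1 (0.985), and 344 genes had r above 0.9. Ly6c2 marks maturing myeloid cells, C3 is a complement component and Mgst1 a glutathione transferase. Mean levels of Ly6c2 were 543.8 CPM under the WT label, 772.3 under Tet2KO, 493.7 under Id1KO and 623.6 under dKO. Among the members, Tgfbr1 and Smad5 had r of 0.86, Smad1 and Tgfbr2 0.84, Smad5 and Smad1 0.81, and Smad4 and Bmpr2 0.80. The points of each correlation share 4 genotypes and their scaling.

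Of 112 other genes of the pathway, 100 had a count and 64 were tested. In Tet2KO against WT 20 rose and 10 fell, 46.9% of those tested, against 32.8% of all genes. In dKO against Tet2KO 8 rose and 13 fell (32.8%, against 26.4%). In Id1KO against WT 4 rose and 8 fell (18.8%, against 15.0% of all genes), in dKO against WT 9 and 6 (23.4%, against 19.2%), and in dKO against Id1KO 8 and 4 (18.8%, against 19.3%), shares near those of all genes. The interaction was positive for 8 and negative for 8, thus called for 16 of 64, against 14.5% of all genes. The lists were drawn up with earlier results of these data known, and the counts describe them only.

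**Figure D5:**
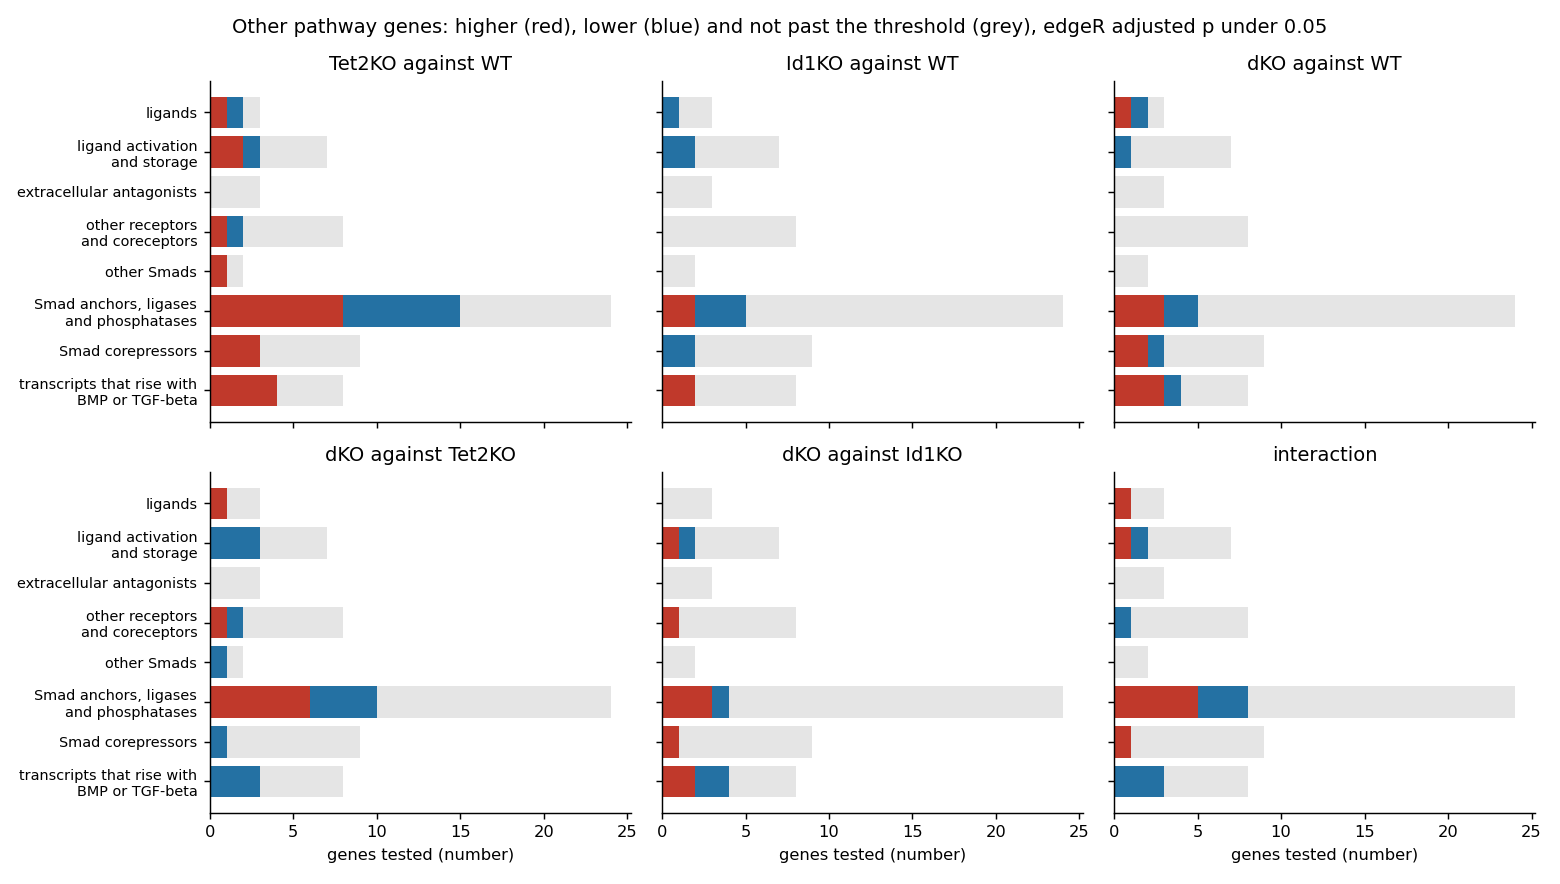
Number of tested genes of each pathway list that rose or fell by edgeR at an adjusted p under 0.05, by comparison. Smad anchors, ligases and phosphatases show both directions in Tet2KO against WT, with 8 higher and 7 lower of 24.

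Ligand transcripts were few in these cells. Of 19 ligands 3 were tested, and Bmp2, Bmp4 and Bmp6 had at most 2, 4 and 0 counts in a library. Tgfb1, the TGF-beta form of blood cells, stood at 123 ± 9.05 CPM in WT and 140 ± 2.99 in Tet2KO and rose by 0.18 ± 0.044 on the log2 scale (edgeR adjusted p = 0.00394). Gdf3, a ligand of the nodal branch, fell by 0.99 ± 0.118, from 11.9 to 5.99 CPM (adjusted p = 2.06e-06). Gdf3 was also lower in Id1KO and dKO against WT, at -0.76 and -0.52 (edgeR adjusted p = 0.000111 and 0.00249). Among genes that store or activate ligand, Ltbp3, which holds latent TGF-beta in the matrix, rose by 0.50 ± 0.076 in Tet2KO against WT, while Thbs1, an activator of latent TGF-beta, fell by 0.99 ± 0.116 (adjusted p = 3.97e-05 and 1.83e-06). Thbs1 was also lower in Id1KO and dKO against WT, at -0.44 and -0.83 (edgeR adjusted p = 0.00913 and 2.74e-05). Of the 13 extracellular antagonists 3 were tested, and the most abundant, Twsg1, stood at 33.3 CPM in WT and 36.6 in Id1KO (log2 fold change 0.14, adjusted p = 0.0985).

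Other receptors and Smads behaved unevenly. Acvr1b, the type I receptor for activin and nodal, had means of 31.0 and 41.9 CPM under the WT and Tet2KO labels and of 34.3 and 31.4 under Id1KO and dKO. It rose in Tet2KO against WT by 0.43 ± 0.051 (edgeR adjusted p = 1.60e-06) and its interaction was -0.56 ± 0.073 (2.51e-05). Tgfbr3, the coreceptor betaglycan, moved the other way: 31.4, 24.2, 33.4 and 29.9 CPM, with -0.37 ± 0.058 in Tet2KO against WT (4.75e-05). Smad3 rose by 0.17 ± 0.048 in Tet2KO against WT and fell by 0.23 ± 0.050 in dKO against Tet2KO (0.0109 and 0.00175). Smad2 passed in none of the 6 contrasts, and Smad9 had at most 1 count.

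Genes that anchor, tag or silence Smads split in direction. Smurf1, a ubiquitin ligase for receptor Smads, rose by 0.28 ± 0.082 in Tet2KO against WT and fell by 0.31 ± 0.084 in dKO against Tet2KO (edgeR adjusted p = 0.0117 and 0.00862). Ppp1r15a, a phosphatase subunit, fell by 0.40 ± 0.044 in Tet2KO against WT (6.97e-07). It was also lower in Id1KO and dKO against WT, at -0.14 and -0.27 (edgeR adjusted p = 0.0269 and 0.000161). Fkbp1a, which binds type I receptors and keeps them inactive, had means of 24.8, 26.7, 24.8 and 34.8 CPM for the labels WT, Tet2KO, Id1KO and dKO. It rose in dKO against each other label, by 0.49, 0.38 and 0.49 against WT, Tet2KO and Id1KO (adjusted p = 2.34e-06, 3.83e-05 and 2.24e-06). Zeb2, a Smad-binding corepressor, rose by 0.28 ± 0.025 in Tet2KO against WT and by 0.45 ± 0.026 in dKO against Id1KO (6.16e-08 and 1.12e-10).

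Of 16 transcripts known to rise with BMP or TGF-beta, 8 were tested, and in Tet2KO against WT 4 rose and none fell, where 16.6% of all genes rose and 32.8% were called. Among the 4 is Id1, itself a targeted gene. Smad6 and Smad7, also transcribed in response to the signal, are members and so not in this list. Neither was called in that comparison, at log2 fold changes of -0.28 and -0.22 (edgeR adjusted p = 0.430 and 0.0817). Id1 rose by 1.39 ± 0.173 (edgeR adjusted p = 3.66e-06), with the level in Id1KO libraries at odds with their label. Tgfbi, a matrix protein of monocytes and macrophages among other cells, went from 15.0 to 29.5 CPM, 0.98 ± 0.068 (1.31e-09), and was at 13.6 in Id1KO and 25.3 in dKO. Klf10, an early TGF-beta response gene, rose in Tet2KO and in Id1KO against WT, by 0.15 and 0.21, and fell in dKO against WT by 0.22, with an interaction of -0.57 ± 0.068 (8.19e-06). Id3 and Id4 had at most 9 and 1 counts in a library and were not tested.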

How the data were processed

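Expected counts per gene for 12 libraries were deposited by the authors. The submitters' processing notes name STAR, RSEM and the build mm10, with no version, and the strand setting is not given in the sources used here. Of the values, 5.06% were not whole, none of them of the members, and counts were rounded. Symbols, positions and exonic lengths came from GENCODE M21, which all 55450 identifiers matched.

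Libraries were grouped by genotype label. The filter filterByExpr (minimum count 10) kept 14346 genes. All 12 libraries were scaled by TMM and fitted together with edgeR's quasi-likelihood model, 1 mean per label. Two-sided F-tests were adjusted by Benjamini-Hochberg over all genes tested, with a threshold of 0.05, and the members were read from that fit. Log2 fold changes have standard errors from the fit. CPM are TMM-scaled. With 3 libraries on each side an exact permutation test reaches no p under 0.1, so none was run.

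The chi-square per gene between libraries of a label was 1.52 to 5.35, beyond sampling noise, and each was kept apart. This check cannot tell separate cell samples from repeated preparations of 1 sample. The common coefficient of variation between libraries of a label in edgeR's fit was 0.0305. Same-numbered libraries of different labels had correlated deviations of -0.0972 to 0.113, with 1 of 18 above 0.1, and numbers were not taken to pair them. Still, 7 of 12 libraries correlated best with their own number, so a pairing is not excluded. A replicate block was fitted as an alternative.

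The members, the lists and the alternatives were chosen with earlier results of these data known. Named were the 10 members, Tet2 and Id1, the genes of a list that were highest or lowest among those called or the 2 most abundant in it, and the 3 genes most like the member with the widest range. Other genes named, among them the untested ligands, Smad9, Id3, Id4 and cell markers, were chosen for their known role. The levels of 2 single cell markers are not reported here. Alternatives were RLE and upper-quartile scaling, DESeq2, no filter, a stricter filter, only the compared libraries, a replicate block, glmTreat at 1.2-fold, a threshold of 0.01, libraries summed per label and leaving out each library. The scripts were tested on simulated counts. Fits used edgeR 4.0.16 and DESeq2 1.42.0 under R 4.3.3, and similar genes were sought with blast 2.17.0 under Python 3.11.15 scripts at 95% identity over at least 100 bp.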

Additional observations from a re-analysis of the deposited data

Results flagged for a closer look

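The change that went with the Id1KO label differed between the WT and the Tet2KO background for 3 members by the interaction term of edgeR's fit. This term is measured against the spread between libraries, which may be repeats of 1 cell sample per label. In that case it says nothing of the spread between cell samples. Against a 1.2-fold change (glmTreat) it was called for 0 members. For Tgfbr1 the difference was -0.36 on the log2 scale, for Tgfbr2 -0.39 and for Smad5 -0.23. In each the dKO libraries lay below the Tet2KO libraries without overlap, while Id1KO and WT libraries overlapped. Cell markers were called on the same contrast too. It was positive for 13 of 15 erythroid genes (none negative) and 3 of 7 monocyte and dendritic genes tested (none negative). It was negative for 5 of 10 stem and multipotent genes (1 positive), for 4 of 7 megakaryocyte genes tested and for 4 of 7 genes of mast cells, basophils and eosinophils (none positive in these 2 lists). In the neutrophil granule, lymphoid and endothelial and stromal lists it was negative for 2 of 9, 1 of 8 and 1 of 6 genes tested and positive for 1, 0 and 0. Of all genes, 14.5% were called in this term, 7.03% negative and 7.46% positive. The lymphoid and the endothelial and stromal lists lie near that share. The part of these markers in the difference was not tested.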

How the results depend on the processing

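No called member changed direction under any alternative. Against a 1.2-fold change (glmTreat) edgeR called 1 member in Tet2KO against WT (Bmpr2), 1 in dKO against Tet2KO (Tgfbr2) and 0 in the other comparisons, namely Id1KO against WT, both other dKO comparisons and the interaction. With libraries summed per label it called 0 in the 4 comparisons where that fit was run, the single labels against WT and dKO against each single label. It gives 1 Tet2 term and 1 Id1 term and was not run for dKO against WT or the interaction. In dKO against WT the count was 0 with DESeq2, with only the compared libraries and at an adjusted p under 0.01. Leaving out 1 library gave 5 to 7 members in Tet2KO against WT, 1 to 2 in Id1KO against WT, 0 to 1 in dKO against WT, 5 to 6 in dKO against Tet2KO, 1 to 2 in dKO against Id1KO and 3 to 3 in the interaction. Tgfbr2 in dKO against Id1KO passed without dKO replicate 1 (adjusted p = 0.0410). The replicate block left the counts of members called at 6, 1, 1, 5, 1 and 3, and changed none of these calls. Own numbers gave the best correlation for 7 of 12 libraries. Leaving aside glmTreat and the threshold of 0.01, 1022 of the members' values stayed on their side of the threshold, 9 moved past it and 22 fell short. Most of these values belong to results not called in the main fit, and only called results can fall short, so the total does not measure how steady the calls are. Over all genes, DESeq2 called 1342 in the interaction against 2078 by edgeR, glmTreat 769, 140, 477, 334, 481 and 237 in the order of comparisons just given, and summed libraries 232 for the Tet2 term and 7 for the Id1 term. The cause of these differences was not tested. Depth limits Bmpr1a, Smad6 and Acvr1, with 1 to 10, 14 to 35 and 36 to 62 counts in a library.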
